A study of Homo sapiens with 6 samples.

Results

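The lineage markers examined here were 9 protein-coding genes used as markers of gastric and intestinal epithelium: TFF1, TFF2, TFF3, CDX1, CDX2, GATA4, GATA6, HNF4A and VIL1. They were chosen by name, as the protein-coding rows with these symbols in the deposited table of 58735 genes, of which each symbol had 1. Gene expression was measured by RNA-seq in NCI-N87, an established human gastric cancer cell line. Lentivirus carried either the empty shRNA vector (shCtrl, named shNC in the sample titles) or an shRNA against SCAMP1, a membrane protein of secretory and endocytic vesicles (shS1#1, named shScamp1 in the titles). Both groups were selected with puromycin (2 μg/ml) as stable populations, grown in the same serum-containing medium and collected before confluence, and 3 libraries of each group were sequenced. A single shRNA in a single cell line was profiled, and the titles call the libraries biological replicates without stating that they came from separate infections, so the p-values measure the spread between these libraries.

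Trefoil factors are small secreted peptides that protect and repair the mucosa. TFF1 and TFF2 belong to the gastric surface and gland mucous cells, and TFF3 to intestinal goblet cells. CDX1 and CDX2 are homeobox factors that specify intestinal epithelium and are switched on in the stomach in intestinal metaplasia. GATA4, GATA6 and the nuclear receptor HNF4A act in endoderm-derived epithelium of both organs, and VIL1 encodes villin, which bundles and severs the actin filaments of intestinal microvilli.

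The libraries held 14311769 to 15988700 reads on genes, which were recovered from the deposited FPKM (fragments scaled for gene length and library size). The knockdown target SCAMP1 stood at 12.6, 12.1 and 11.5 FPKM without knockdown, whereas 1.70, 1.37 and 1.99 FPKM remained with shS1#1 (log2 fold change -2.78, adjusted p = 0.000248 by limma). The library shS1#1 replicate 2 stood apart, with 9.21% of its reads from mitochondrial genes against 6.09% to 6.78% in the other 5, and calls and orders of the markers that change without it are given both ways. The cells kept an epithelial profile in both groups: the summed level of EPCAM, CDH1, KRT8 and KRT19 was 3353 to 3547 FPKM in shCtrl and 5863 to 6319 FPKM in shS1#1 libraries. KRT8 (mean 1534 FPKM in shCtrl and 3002 FPKM in shS1#1) and KRT19 (1688 and 2844 FPKM) made up most of this sum. CDH1, KRT8 and KRT19 rose and EPCAM did not pass the test (adjusted p = 0.670 by limma). Of the squamous markers TP63, KRT5, KRT14 and DSG3, summed at 34.1 to 36.8 FPKM in shCtrl and 41.8 to 46.0 FPKM in shS1#1 libraries, KRT5 (log2 fold change 1.33) and KRT14 (1.06) rose. DSG3, which made up most of the sum, did not pass the test (31.4 and 33.9 FPKM, adjusted p = 0.369), and TP63 was at or under 0.0367 FPKM. Markers of other cell types were low, with summed levels in any library of at most 0.0628 FPKM for 4 immune genes, 0.215 FPKM for 3 neuroendocrine genes and 1.27 FPKM for 5 mesenchymal genes, of which COL1A1 alone passed the filter described below (0.617 and 0.670 FPKM, adjusted p = 0.865). The sum of 3 endothelial genes, each under that filter and mostly VWF, was 0.139 to 0.235 FPKM in shCtrl and 0.381 to 0.613 FPKM in shS1#1 libraries. The part of these markers in the results below was not tested.

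The 9 markers fell into genes at or near 0 and expressed genes. Transcripts of 3 markers, TFF1, TFF3 and CDX1, were not detected in any library, and TFF2 was covered by 0 to 2 reads per library. The other 5, namely CDX2, HNF4A, GATA4, VIL1 and GATA6, were expressed above the filter of a mean of 0.5 FPKM over the 6 libraries and were tested. In SCAMP1-depleted cells VIL1 fell to 0.341 times its control level in FPKM and GATA6 rose 1.67-fold, whereas CDX2, HNF4A and GATA4 did not pass the test. In these bulk libraries, fewer cells of a type and less RNA per cell cannot be told apart. With a Benjamini-Hochberg adjusted p under 0.05 as the threshold, limma called 1 of the 5 tested markers higher and 1 lower, and the median log2 fold change of the 5 was -0.22. Over all 15556 genes tested the median was -0.02, and 14.0% were called, 8.82% higher and 5.17% lower. The share of higher genes among all called genes was 63.0%, and was 47.3% when libraries were scaled to equal total reads. With the study's fold threshold, an absolute log2 fold change above 1, only VIL1 of the 5 was called, against 3.16% of all genes tested.

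**Figure D1:**
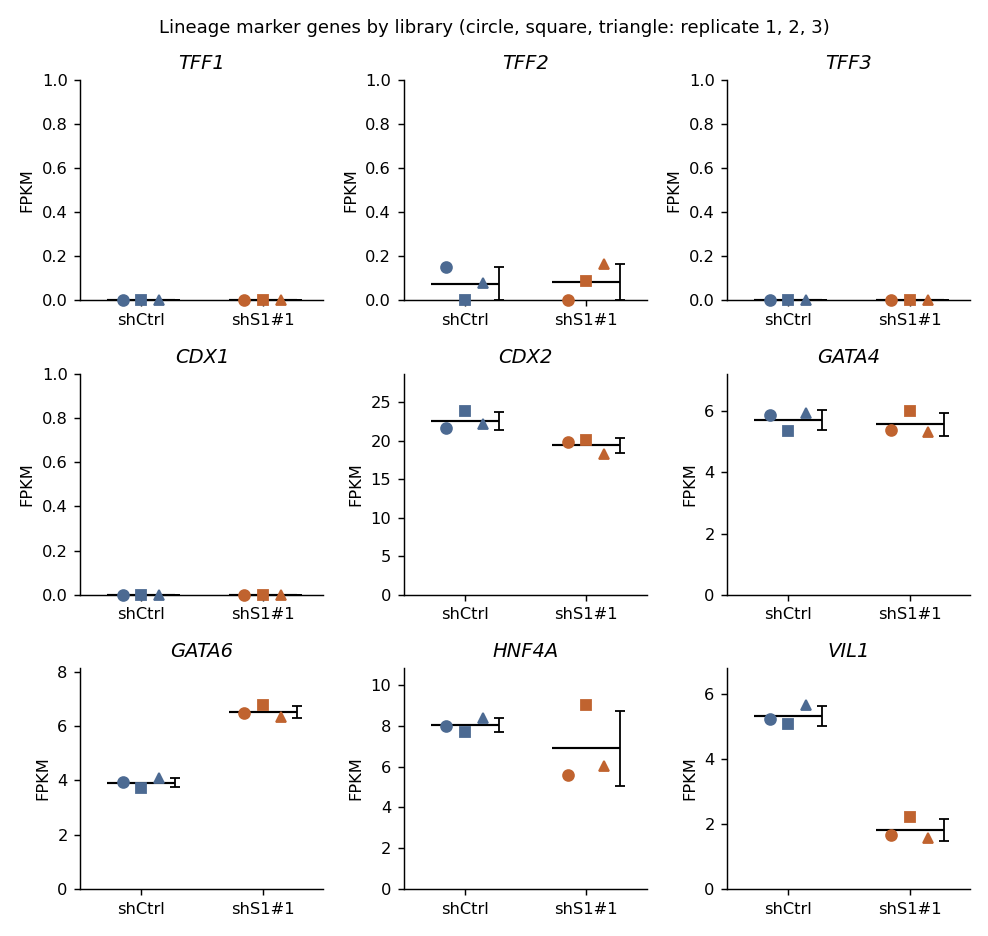
FPKM of each of the 9 lineage markers (vertical axes, each from 0 on its own scale) in the 3 shCtrl and 3 shS1#1 libraries. Points are libraries, horizontal lines are means and bars are SD (drawn down to 0 at most); TFF1, TFF3 and CDX1 lie at 0 throughout, VIL1 is lower and GATA6 higher in every shS1#1 library, and HNF4A of shS1#1 replicate 2 lies above all shCtrl libraries.

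The trefoil factor genes lie beside each other on the reverse strand of chromosome 21, TFF3 from 42311667 to 42315651, TFF2 from 42346357 to 42351128 and TFF1 from 42362282 to 42366594 (GRCh38, as are all coordinates below). For TFF1, the trefoil peptide of gastric surface mucous cells, 0 reads were counted in each of the 6 libraries, and 3 reads, the number that a count of 0 allows, would correspond to 0.327 to 0.398 FPKM. For TFF3, the intestinal form, 0 reads were likewise counted in each library, and the corresponding limit was 0.154 to 0.188 FPKM. TFF2, the form of gastric gland mucous cells, was covered by 2, 0 and 1 reads in shCtrl libraries and by 0, 1 and 2 reads in shS1#1 libraries. This was 0 to 0.152 FPKM in shCtrl and 0 to 0.165 FPKM in shS1#1 libraries, where 3 reads would correspond to 0.217 to 0.264 FPKM. The groups overlapped fully, and no difference in a trefoil factor was detectable at this depth. These limits cover counting error only.

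Genes on either side of the trefoil cluster, examined after values were seen, were transcribed. Within 250 kb of it the table lists 6 other protein-coding genes, of which 4 had a mean of at least 0.5 FPKM. TMPRSS3, a membrane serine protease whose lowest coordinate lies 60.2 kb beyond that of TFF3, was at 1.96, 2.13 and 1.95 FPKM in shCtrl and at 3.32, 2.79 and 3.33 FPKM in shS1#1 libraries. The groups did not overlap, as for 41.4% of all genes tested, and TMPRSS3 rose (log2 fold change 0.61, adjusted p = 0.0142 by limma). SLC37A1, a sugar phosphate transporter at 184 kb, was at 4.02, 3.87 and 3.52 FPKM in shCtrl and 6.55, 6.61 and 6.78 FPKM in shS1#1 libraries, and also rose (log2 fold change 0.79, adjusted p = 0.00190 by limma). Neither call was followed in fits that left out a library. ABCG1, a sterol transporter on the other side of the cluster, had a mean of 0.344 FPKM in shCtrl and 0.701 FPKM in shS1#1 cells and did not pass the test (adjusted p = 0.156), nor did RSPH1 (log2 fold change -0.23). UBASH3A had 0 reads in all 6 libraries, and UMODL1 had 2 reads at most.

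**Figure D2:**
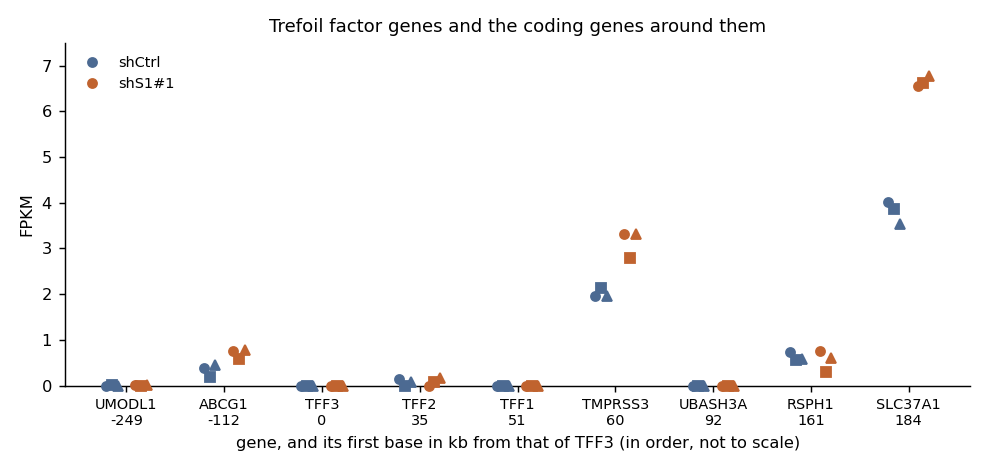
FPKM (vertical axis) of the 3 trefoil factor genes and the 6 other protein-coding genes within 250 kb, in genomic order, with the distance of each gene's first base from that of TFF3 in kb. Each point is a library (circle, square and triangle are replicates 1, 2 and 3); the trefoil genes lie at or near 0, and TMPRSS3 and SLC37A1 are higher in every shS1#1 library.

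CDX1, which spans 150166795 to 150184558 of chromosome 5 (forward strand), had 0 reads in each of the 6 libraries, and a count of 3 would correspond to 0.102 to 0.125 FPKM. Its paralogue CDX2, on the reverse strand of chromosome 13 from 27962137 to 27971139, was the most abundant of the 9 markers in both groups. CDX2 was at 21.6, 23.9 and 22.2 FPKM in shCtrl libraries, with 1412 to 1640 reads. In shS1#1 libraries it was at 19.8, 20.04 and 18.3 FPKM, with 1101 to 1193 reads. All 3 shS1#1 libraries lay below the lowest shCtrl library, as the groups also did not overlap for 41.4% of all genes tested. Averaged by group, CDX2 stood at 22.6 ± 1.16 FPKM in control cells and at 19.4 ± 0.973 FPKM after depletion (SD, n = 3 each). The log2 fold change was -0.22 (95% interval -0.39 to -0.05), which did not pass the test over all genes (adjusted p = 0.0965 by limma). Without shS1#1 replicate 2 the log2 fold change was -0.24 and CDX2 was called lower (adjusted p = 0.0338 by limma).

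HNF4A, which spans 44355700 to 44434596 of chromosome 20 (forward strand), was second in level. It was at 7.99, 7.70 and 8.40 FPKM in shCtrl libraries and at 5.60, 9.02 and 6.05 FPKM in shS1#1 libraries. Between 598 and 949 reads covered it. The level in shS1#1 replicate 2 was above all 3 shCtrl libraries, whereas the levels in the other 2 shS1#1 libraries were below them. With all libraries the log2 fold change was -0.25 (95% interval -0.68 to 0.18, adjusted p = 0.391 by limma). Without shS1#1 replicate 2 it was -0.46 and HNF4A was called lower (adjusted p = 0.00512 by limma), so the call rests on whether that library is kept. The part of the mitochondrial share of that library in its HNF4A level was not tested. HNF4A-AS1 and AL117382.2, which lie across HNF4A on the opposite strand, were at 0.470 FPKM or less in every library, and the microRNA gene MIR3646 lies within HNF4A on its own strand. Whether reads were assigned by strand is not given in the sources used here.

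Windows around the annotated starts of CDX2, GATA6 and HNF4A, transcription factors among the expressed markers, were taken from the RefSeq promoter table (GRCh38.p14). The selection gave 4 windows for 3 of the 9 markers, each from 250 bases before to 50 bases after a start. GATA4, also an expressed transcription factor, was not part of this selection, and its starts were not examined. The CDX2 window lies around a RefSeq start inside the gene span given above. HNF4A has 2 of these starts, and the deposited value of HNF4A sums transcripts from both. Capitals mark words of the GATA type (the word AGATAA, the word AGATAG, the word TGATAA or the word TGATAG) and of the caudal type (TTTAT), each searched on both strands. The windows read, from 5′ to 3′ on the strand of the gene:
CDX2 (chr13:27969266-27969565, reverse strand): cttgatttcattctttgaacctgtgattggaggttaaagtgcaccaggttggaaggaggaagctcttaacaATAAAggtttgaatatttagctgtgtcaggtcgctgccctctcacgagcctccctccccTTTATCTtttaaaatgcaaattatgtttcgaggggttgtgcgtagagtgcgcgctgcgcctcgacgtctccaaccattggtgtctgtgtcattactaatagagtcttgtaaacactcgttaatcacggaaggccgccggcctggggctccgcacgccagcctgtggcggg
GATA6 (chr18:22169339-22169638, forward strand): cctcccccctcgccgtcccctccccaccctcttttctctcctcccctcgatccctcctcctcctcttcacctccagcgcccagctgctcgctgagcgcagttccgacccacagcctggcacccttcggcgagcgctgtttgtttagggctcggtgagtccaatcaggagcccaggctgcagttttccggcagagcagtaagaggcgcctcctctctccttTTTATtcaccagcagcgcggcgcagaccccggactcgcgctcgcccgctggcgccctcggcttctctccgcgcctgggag
HNF4A, upstream start (chr20:44355449-44355748, forward strand): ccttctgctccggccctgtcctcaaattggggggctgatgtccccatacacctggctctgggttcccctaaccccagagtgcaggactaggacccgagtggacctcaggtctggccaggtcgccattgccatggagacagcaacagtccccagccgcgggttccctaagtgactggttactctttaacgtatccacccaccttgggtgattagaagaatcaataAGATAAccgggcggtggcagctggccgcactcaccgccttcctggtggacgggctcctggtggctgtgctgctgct
HNF4A, downstream start (chr20:44400989-44401288, forward strand): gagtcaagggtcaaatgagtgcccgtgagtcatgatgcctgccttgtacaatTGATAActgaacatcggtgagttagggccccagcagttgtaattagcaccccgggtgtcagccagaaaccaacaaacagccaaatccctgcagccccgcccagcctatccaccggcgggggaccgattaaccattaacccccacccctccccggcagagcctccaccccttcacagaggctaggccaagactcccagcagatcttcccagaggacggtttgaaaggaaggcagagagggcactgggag

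The CDX2 window held 2 caudal-type words and 1 GATA-type word, and the GATA-type word overlaps a caudal-type one. The GATA6 window held 1 caudal-type word and 0 GATA-type words. Each of the HNF4A windows held 1 GATA-type word and 0 caudal-type words. Of all 35116 windows in the table, 25.0% held a GATA-type word and 34.9% a caudal-type word. The matches describe the letters in these windows, and binding was not measured.

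GATA6, which spans 22169443 to 22202528 of chromosome 18 (forward strand), was the marker that rose. It was at 3.95, 3.73 and 4.07 FPKM in shCtrl libraries, with 245 to 248 reads. In shS1#1 libraries it was at 6.47, 6.78 and 6.34 FPKM, with 366 to 373 reads. Every shS1#1 library was above every shCtrl library, and the 3 shS1#1 libraries, replicate 2 included, differed little from each other. Group means were 3.92 ± 0.174 FPKM for shCtrl and 6.53 ± 0.223 FPKM for shS1#1 (SD, n = 3 each). GATA6 rose by 0.72 on the log2 scale (standard error 0.071, 95% interval 0.55 to 0.90, adjusted p = 0.00206 by limma). Fits without 1 library gave 0.69 to 0.75, with an adjusted p of at most 0.0187. Overlapping genes on the opposite strand, GATA6-AS1, AC091588.1, AC091588.3 and RNU6-702P, were at 1.63 FPKM or less in each library.

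GATA4, its paralogue spanning 11676959 to 11760002 of chromosome 8 (forward strand), was at 5.88, 5.35 and 5.93 FPKM in shCtrl libraries. In shS1#1 libraries GATA4 was at 5.38, 6.02 and 5.31 FPKM. The groups overlapped, and each library held 345 to 414 reads of the gene. The log2 fold change was -0.04 with a 95% interval of -0.24 to 0.16 (adjusted p = 0.788 by limma), so a change as large as that of GATA6 lay outside the interval. The ratio of GATA6 to GATA4 within a library was 0.672, 0.697 and 0.686 in shCtrl and 1.204, 1.126 and 1.195 in shS1#1 libraries. GATA4 was thus the more abundant of the pair in all 3 shCtrl libraries and GATA6 in all 3 shS1#1 libraries. An exact two-sided permutation test of the log ratio gave p = 0.1, the smallest p that 3 libraries against 3 allow.

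VIL1, which spans 218419092 to 218453295 of chromosome 2 (forward strand), changed most among the markers. It was at 5.23, 5.07 and 5.67 FPKM in shCtrl libraries, with 574 to 606 reads. In shS1#1 libraries it was at 1.66, 2.21 and 1.58 FPKM, with 160 to 209 reads. The highest shS1#1 library, replicate 2, was still well under the lowest shCtrl library. The mean fell by 65.9%, from 5.32 ± 0.309 to 1.82 ± 0.340 FPKM (SD, n = 3 each). The log2 fold change was -1.51 (standard error 0.138, 95% interval -1.85 to -1.18, adjusted p = 0.00162 by limma). Fits without 1 library gave -1.65 to -1.43, with an adjusted p of at most 0.0148. The 3′ end of VIL1 overlaps that of USP37, a gene on the opposite strand, over 3045 bases of the gene spans. USP37 was at 2.79, 2.67 and 2.61 FPKM in shCtrl and at 2.00, 3.48 and 2.58 FPKM in shS1#1 libraries and did not pass the test (log2 fold change -0.03, adjusted p = 0.926 by limma).

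**Figure D3:**
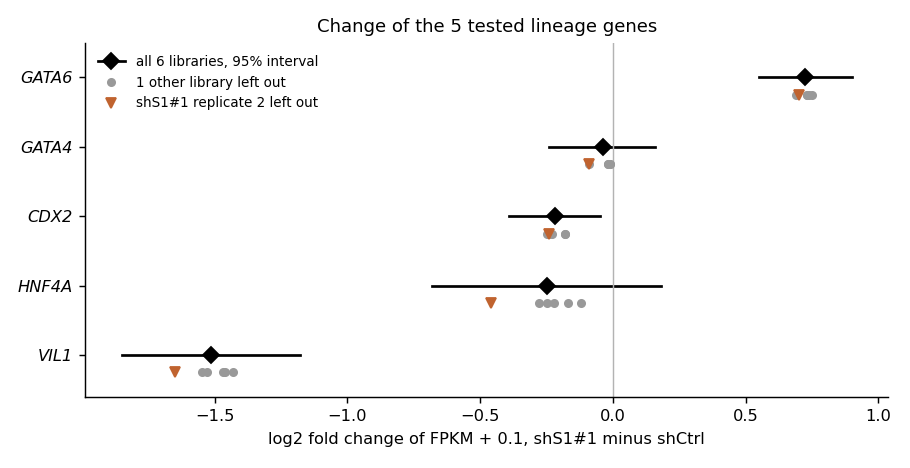
Log2 fold change of FPKM + 0.1 (horizontal axis, shS1#1 minus shCtrl) of the 5 tested lineage markers. Diamonds and lines are the estimate and its 95% interval from limma with all 6 libraries, grey circles are estimates without 1 library and the coloured triangle is the estimate without shS1#1 replicate 2; GATA6 lies right of 0 and VIL1 left of 0 in every estimate, and HNF4A moves to -0.46 without that library.

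The order of the markers by FPKM, which is scaled by the annotated length of each gene, differed between the groups. How far these lengths match the transcripts expressed was not tested. In shCtrl cells CDX2 (mean 22.6 FPKM) was followed by HNF4A (8.03), GATA4 (5.72), VIL1 (5.32) and GATA6 (3.92), and of these neighbours only GATA4 and VIL1 overlapped over the libraries. In shS1#1 cells CDX2 (19.4 FPKM) was followed by HNF4A (6.89), GATA6 (6.53), GATA4 (5.57) and VIL1 (1.82). There HNF4A and GATA6 overlapped, and the lowest HNF4A library also lay within the range of GATA4. GATA6 was thus the last of the 5 in control cells and VIL1 the last in depleted cells. The place of GATA6 in depleted cells depended on shS1#1 replicate 2: it followed HNF4A with all 3 libraries, and without that library it came before it, at a mean of 6.41 FPKM against 5.82 FPKM for HNF4A, with no overlap between the remaining 2 libraries. In shCtrl cells the mean of VIL1 exceeded that of 62.6% of protein-coding genes with reads, and in shS1#1 cells that of 43.8%.

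Genes whose profile over the 6 libraries was most like that of CDX2 and VIL1 were sought among protein-coding genes averaging 5 FPKM or more, by Pearson correlation of log2(FPKM + 0.1). For VIL1 these were TLE1 (0.999), PIP4K2B (0.999) and ALDH1B1 (0.997), and 197 of 6577 genes compared had a correlation over 0.95. All 3 were lower in shS1#1 cells, but by less than VIL1, with log2 fold changes of -0.35, -0.25 and -0.66. For CDX2 they were KDELR2 (0.989), RBMX (0.977) and DPY19L1 (0.974), and 11 genes exceeded 0.95. The 6 libraries fall into the same groups for every gene, so these values are a description only.

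Villin works in the brush border together with other actin-bundling, anchoring and adhesion proteins, and 16 of their genes were examined. Of these, 10 were tested. SCAMP1-depleted cells had 3 of them higher and 2 lower, and the median log2 fold change was -0.15, where over all genes 8.82% were higher and 5.17% lower and the median was -0.02. EZR encodes ezrin, the linker of microvillar actin to the membrane and the most abundant gene of the list. It was at 213, 206 and 213 FPKM in shCtrl and at 393, 389 and 392 FPKM in shS1#1 libraries (log2 fold change 0.89, adjusted p = 0.000857 by limma). MYO6 (log2 fold change 0.49) and BAIAP2L1 (0.46) also rose. USH1C, which encodes harmonin of the tip-link complex between microvilli, fell (12.3 ± 0.441 FPKM in shCtrl, 8.53 ± 0.298 FPKM in shS1#1, SD, n = 3 each, log2 fold change -0.52, adjusted p = 0.00511 by limma). ESPN, encoding the actin bundler espin, fell from 1.14 to 0.578 FPKM (log2 fold change -0.87, adjusted p = 0.0414), and was called in 1 of the 6 fits that left out a library. Its call was also lost with no filter (adjusted p = 0.0822) and with the replicate block (0.125). The actin bundler PLS1, named after its values were seen, was at 9.88 and 9.07 FPKM (adjusted p = 0.292), and SLC9A3R1, a scaffold that binds ezrin, was at 104.9 and 93.4 FPKM (adjusted p = 0.127, and 0.0304 with a log2 fold change of -0.17 without shS1#1 replicate 2). MYO1D did not pass the test (log2 fold change 0.43, adjusted p = 0.0731 by limma). Without shS1#1 replicate 2 MYO1D was called higher (0.29, adjusted p = 0.00461), as also by voom (0.0408) and with protein-coding genes only (0.0446). BAIAP2L1 lost its call also with equal total reads (adjusted p = 0.0623), with no filter (0.0543), without the trend (0.0523) and with the replicate block (0.0746). MYO6 was called in 3 and BAIAP2L1 in 1 of the 6 fits without a library, whereas EZR and USH1C were called in all.

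Of 25 other genes of the gastric lineage, 7 were tested, 4 were higher and 1 was lower, with a median log2 fold change of 0.61. The shares over all genes tested were 8.82% higher and 5.17% lower, with a median of -0.02. The other 18 were under the filter, at 0.825 FPKM or less in every library, and 4 of them had 0 reads in all libraries. PSCA, a surface antigen of gastric surface cells, rose (20.1 ± 1.30 FPKM in shCtrl, 69.2 ± 21.02 FPKM in shS1#1, SD, n = 3 each, log2 fold change 1.73, adjusted p = 0.00649 by limma). AQP5, a water channel of pyloric glands, rose from 3.91 ± 0.160 to 16.2 ± 3.09 FPKM (log2 fold change 2.01, adjusted p = 0.000847). For both genes shS1#1 replicate 2 was the lowest of its group, with 45.5 FPKM for PSCA and 12.7 FPKM for AQP5, and still above all shCtrl libraries. CAPN8, a calpain of gastric mucous cells (log2 fold change 0.87), and GAST, the gastrin gene (0.61), also rose; GAST was named after its values were seen. BARX1, a homeobox factor of the developing stomach, fell from 2.66 ± 0.245 to 1.14 ± 0.241 FPKM (log2 fold change -1.17, adjusted p = 0.00816). These 5 genes were called in each of the 6 fits that left out a library.

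Genes of the intestinal lineage were mostly under the filter. Of 30 genes besides the markers above, 28 were under the filter, at 0.675 FPKM or less in every library, and 5 had 0 reads in all of them. The 2 genes tested were KRT20, a keratin of differentiated intestinal cells, at 72.1 ± 2.49 and 70.3 ± 3.53 FPKM (SD, n = 3 each), and HEPH, a copper oxidase of iron export, at 5.73 ± 0.580 and 5.57 ± 0.621 FPKM. Of these, limma called 0, with 0 at an unadjusted p under 0.05 and 0 by voom, and both log2 fold changes were -0.04 (95% intervals of -0.20 to 0.13 for KRT20 and -0.31 to 0.23 for HEPH). Over all genes tested, 8.82% were called higher and 5.17% lower, and 2 genes are too few to set against these shares.

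The transcription factors that act with CDX2, HNF4A and the GATA factors in endoderm-derived epithelium were examined in a list of 20. Of these, 10 were tested, 3 were higher and 2 lower, with a median log2 fold change of 0.09, against 8.82% higher, 5.17% lower and a median of -0.02 over all genes. EHF (log2 fold change 0.88), FOXA1 (0.55) and SOX9 (0.36) rose, and FOXA3 (-0.45) and HHEX (-0.42) fell. KLF5, the most abundant factor of the list, was at 102 and 91.2 FPKM (adjusted p = 0.202 by limma). Without shS1#1 replicate 2 it was called lower (log2 fold change -0.22, adjusted p = 0.0293). The same fit called ELF3 higher (log2 fold change 0.52, adjusted p = 0.00035 by limma). With all libraries ELF3 did not pass the test (0.35, adjusted p = 0.174). Each of the 5 calls was lost in some of the fits that left out a library, with adjusted p-values up to 0.0641 for EHF, 0.0918 for FOXA1, 0.121 for SOX9, 0.120 for FOXA3 and 0.126 for HHEX.

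**Figure D4:**
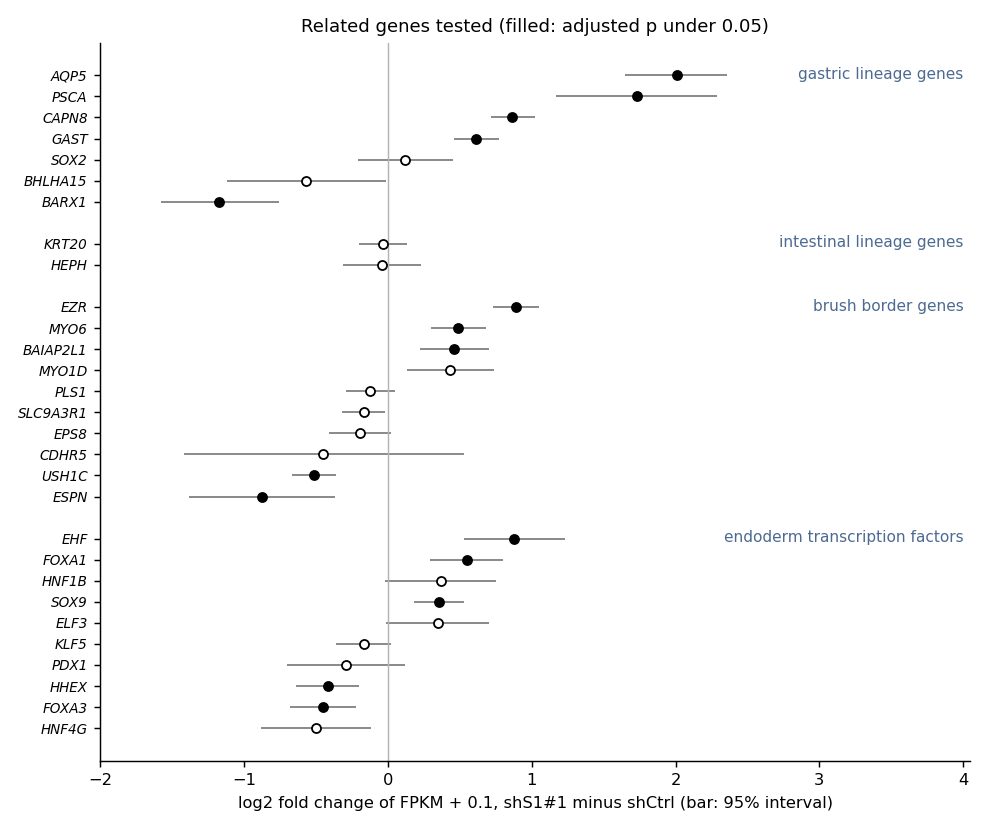
Log2 fold change of FPKM + 0.1 (horizontal axis, shS1#1 minus shCtrl) of the tested genes in the 4 lists of related genes. Points are estimates and bars 95% intervals from limma with 3 libraries per group, and filled points have an adjusted p under 0.05; AQP5 and PSCA lie farthest right and BARX1 farthest left.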

How the data were processed

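The authors deposited FPKM per gene and library for 58735 genes, with coordinates equal to GENCODE 29 on GRCh38. The submitters' processing notes name HISAT2 2.0.5, featureCounts 1.5.0-p3 and DESeq2 1.20.0, without giving the role of each, and use of strand is not given in the sources used here. Reads on each gene were recovered by multiplying FPKM by gene length and dividing by the worth of 1 read in that library, which came out whole for 100% of values above 0 (tolerance 0.01 of a read).

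Expression was compared in R 4.3.3 with limma 3.58.1 (lmFit, eBayes with a mean-variance trend) on log2(FPKM + 0.1). The 15556 genes averaging 0.5 FPKM or more were tested, with Benjamini-Hochberg adjustment over all of them. Fold changes on this scale understate those of low genes. A gene was called at an adjusted p under 0.05. The markers, lists and tests were chosen with earlier results of these data known. The lists of related genes were written by hand and are no database terms. Besides the 9 markers and SCAMP1, the genes named are up to 3 called genes per list and direction with the largest change. Also named are the 2 most abundant per list, the 3 most alike to CDX2 and VIL1 and genes overlapping a marker. The protein-coding genes near the trefoil cluster were added later, after values were seen. The cell type markers, SOX2, GAST, PLS1, ELF3, MYO1D, MUC5AC and MYO7B are named outside these rules. Alternatives were another pseudocount, filter, scaling, trend or biotype set, voom on recovered reads, the replicate number as a block, unadjusted p-values and leaving out each library. Rescaling by the median ratio over genes and the order of the markers without shS1#1 replicate 2 were alternatives chosen after seeing the data.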

Additional observations from a re-analysis of the deposited data

How the results depend on the processing

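The directions of VIL1, GATA6, CDX2, HNF4A, GATA4 and SCAMP1 held in all 18 alternatives, and the calls of VIL1 (log2 fold change -1.65 to -1.17) and GATA6 (0.62 to 0.75) did too. CDX2 passed with equal total reads (-0.29, adjusted p = 0.0406 by limma) and at an unadjusted p (-0.22), and lay between -0.25 and -0.18 without each library in turn, where HNF4A lay between -0.46 and -0.12. Members called lower numbered 2 with equal total reads, 2 at an unadjusted p, and 1 to 3 without a library.

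Over all genes, 704 were called higher and 254 lower with the replicate block, 2498 and 2284 at an unadjusted p, and 651 to 2296 and 166 to 2078 without a library, the most without shS1#1 replicate 2. Lower genes numbered 514 with no filter and 1268 with equal total reads. Same-numbered libraries correlated at -0.035, 0.032 and 0.067 in their deviations, and those of different numbers at -0.084 to 0.054. These values do not show whether same-numbered libraries were prepared together. The block left 1 endoderm factor higher, 0 lower and 2 brush border genes higher and 1 lower. Without a library, 1 to 4 brush border genes and 0 to 4 endoderm factors were higher, and 1 to 3 and 0 to 3 were lower. The lower brush border genes numbered 1 with no filter and 1 when only genes averaging 1 FPKM or more were kept, the lower endoderm factors 0 with no filter, and the lower gastric genes 2 at an unadjusted p. Without a library, HEPH ranged from -0.13 to 0.04 (0.04 without shCtrl replicate 1, 0.02 without shS1#1 replicate 3) and SOX2 from -0.02 (without shS1#1 replicate 3) to 0.22, and neither was called. The causes were not tested. The edgeR and DESeq2 alternatives were not run, and voom was the test applied to the recovered reads. Depth limits the trefoil genes and CDX1. Other genes under the filter, some of them with many reads, were left out of the main test by the filter.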

Other observations

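In the 4 lists of related genes, 51 genes with reads lay under the filter and were not tested in the comparison reported, and for 12 of them (23.5%) the libraries did not overlap between the groups. The share was 11.2% over all 18016 genes under the filter with reads. These shares were not matched for read depth, and some of the 12 genes were covered by 3 reads or fewer in each library. With no filter, 5 gastric lineage genes were called higher by limma in place of 4. Over all genes, 1100 of the 33572 then tested were called higher. The 2 genes named here were chosen after their values were seen. MUC5AC, the mucin of gastric surface cells, was covered by 22, 22 and 27 reads in shCtrl libraries and by 131, 197 and 183 reads in shS1#1 libraries, or 0.0757 to 0.1002 FPKM against 0.514 to 0.825 FPKM. MYO7B, a myosin of the tip-link complex of the brush border that carries harmonin, was covered by 53, 50 and 48 reads in shCtrl and by 17, 17 and 16 reads in shS1#1 libraries, or 0.341 to 0.380 FPKM against 0.124 to 0.141 FPKM.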
